A study of Mus musculus with 48 samples.

Results

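The nuclear genes for the subunits of the mitochondrial respiratory chain and ATP synthase were followed in primary cultures of mouse striatal astrocytes and neurons. Members were taken by their platform symbols, namely those that begin with Ndufa, Ndufb, Ndufc, Ndufs, Ndufv, Uqcr, Cox4 to Cox8 or Atp5 and the symbols Sdha to Sdhd. This rule found 88 of the 22451 gene symbols on the array, on 130 of its 46174 probes, and for each symbol the probe with the highest mean over all 48 arrays was used. The rule used no measured difference. It found 35 subunits of complex I, 4 of complex II, 8 of complex III, 16 of complex IV and 17 of complex V, as well as 7 assembly factors of complex I (Ndufaf genes) and the transcribed pseudogene Ndufs5-ps. Atp5f1 and Atp5pb are an older and a newer symbol of the same gene and were counted as listed.

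The series comprised 12 groups of 4 arrays, which were made from C57BL/6J primary neurons and astrocytes treated for 4 h. In each cell type the groups received vehicle (ethanol in medium), 100 nM dexamethasone, a synthetic glucocorticoid, or 200 nM of aldosterone, progesterone, dihydrotestosterone or estradiol. Neurons came from late embryos and were kept in Neurobasal with B27, and astrocytes came from pups in their first postnatal week, were selected magnetically with an antibody against the surface protein GLAST and grew in DMEM with serum. Both were in Neurobasal without supplement for the last day, and the sources used here do not state whether animals were pooled. Age, medium and isolation therefore cannot be told apart from cell type. By value the same holds for the array slide, since each slide held 1 cell type, although by the deposited column labels some slides held both. Values were the log2 intensities normalised by the authors.

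Oxidative phosphorylation couples electron transport to ATP synthesis in the inner mitochondrial membrane. Complexes I (NADH dehydrogenase) and II (succinate dehydrogenase) pass electrons to ubiquinone, complex III (cytochrome bc1) passes them on to cytochrome c and complex IV (cytochrome c oxidase) to oxygen, while complex V (ATP synthase) makes ATP from the proton gradient. Several small subunits of complex IV exist as paralogues that differ between tissues, for example the Cox7a1 and Cox6a2 forms of heart and skeletal muscle and the Cox6b2 form of testis. Neurons are known to rely strongly on oxidative phosphorylation, and astrocytes to be more glycolytic.

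The labels were checked first with 18 genes that glucocorticoids are known to induce, such as Fkbp5, a co-chaperone of steroid receptors. Their mean log2 intensity was 10.98 to 11.17 in the 4 vehicle and 12.76 to 12.83 in the 4 dexamethasone arrays of astrocytes. In neurons it was 10.02 to 10.09 in vehicle arrays 1, 2 and 4 and 10.73 to 10.80 in dexamethasone arrays 1, 2 and 4, whereas the arrays labelled vehicle 3 and dexamethasone 3 read 10.81 and 10.35. These 2 arrays were left out, and 46 arrays entered the fit. Of the cell type markers, 11 of 14 neuronal genes were higher in vehicle neurons (mean 11.03 to 11.22 against 8.42 to 8.48, with Snap25, Gad2 and Nefl near background in both) and 10 of 11 astrocyte genes in vehicle astrocytes (12.74 to 12.84 against 11.09 to 11.21). The 8 microglial genes read 12.55 to 12.60 in the astrocyte and 8.98 to 9.14 in the neuron cultures, and 4 genes of proliferation read 10.57 to 10.78 against 8.87 to 8.99. Of 7 oligodendrocyte genes 4 were higher in neurons (10.27 to 10.34 against 8.78 to 9.16), 1 of 5 endothelial genes was higher in each cell type and 4 of the 5 were near background in astrocytes, and of 8 fibroblast and mural genes 3 were higher in astrocytes and 1 in neurons. The part of these cells in the differences below was not tested. In bulk cultures, fewer cells of a type and less RNA per cell cannot be told apart.

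A feature of the deposited values touched the brightest members. On 47 of the 48 arrays no probe had a value within a range 0.50 to 0.52 wide, whose lower edge lay at 15.11 to 15.68, and 99 to 197 probes lay above it. The next widest step was at most 0.05 on those arrays. Only the neuron vehicle array 1 lacked such a range, its widest step near the top being 0.03 and its highest value 16.09, against at least 16.55 elsewhere. Of the members, Atp5b (the catalytic beta subunit of ATP synthase) and Atp5g3 (a subunit c of its rotor) lay above the range on every array that had one, and 11 others lay above it on some arrays and below it on others. These 11 were Atp5j2, Atp5l, Atp5mpl, Atp5o, Cox4i1, Cox5b, Cox6a1, Cox6b1, Ndufa13, Ndufa4 and Uqcr10. Their differences were therefore also computed with the range closed, that is with every value above it lowered by its width, a choice made after the values were seen.

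**Figure D1:**
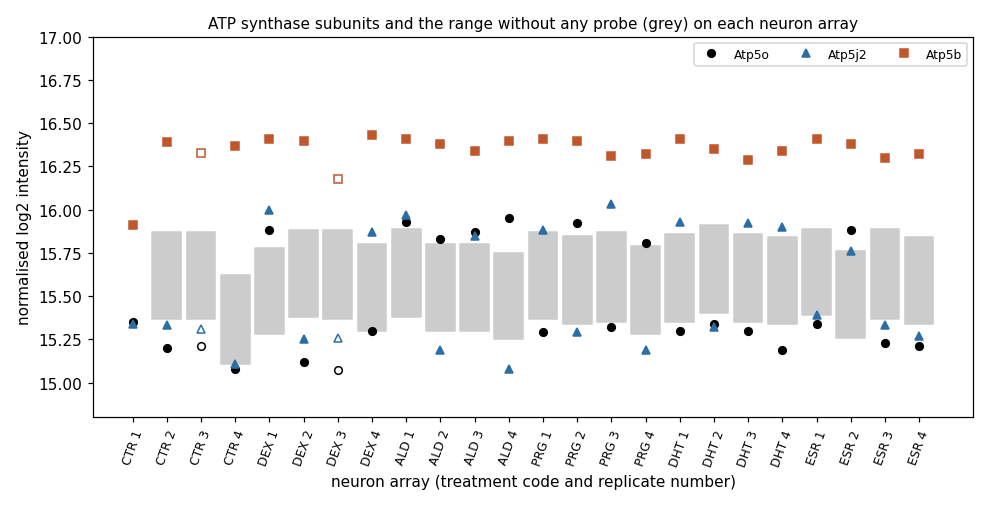
Log2 intensity of Atp5o, Atp5j2 and Atp5b (y axis) on each of the 24 neuron arrays (x axis, labelled by replicate number and treatment, with CTR for vehicle, DEX for dexamethasone, ALD for aldosterone, PRG for progesterone, DHT for dihydrotestosterone and ESR for estradiol). Grey bars show the range without any probe value on each array and open symbols the 2 arrays left out. Atp5o and Atp5j2 lie on one side of the range on some arrays and on the other side on the rest, and Atp5b lies above it on each array that has one.

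The baseline of the 2 cell types was compared in the vehicle groups (4 astrocyte against 3 neuron arrays). The widest gaps between astrocytes and neurons were those of the complex IV isoforms Cox6b2, Cox7a1 and Cox7a2, the complex I subunit Ndufb2 and the assembly factors Ndufaf1 and Ndufaf5. At a false discovery rate of 0.01, 13 members were higher and 16 lower in astrocytes, and 59 passed in neither direction. Over all genes, 21.7% were higher and 19.3% lower, so that 41.0% were called in either direction, against 33.0% of the members. The median difference was -0.02 for the members and 0.012 for all genes. A difference past the threshold of at least 1 on the log2 scale was seen for 6 members (6.82%), against 21.5% of all genes.

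By complex, 4 subunits of complex I were higher and 3 lower (median difference 0.076 over 35), none of the 4 of complex II was called (median -0.152), and 1 of the 8 of complex III was higher and 2 lower (median 0.097). In complex IV 3 of 16 were higher and 5 lower (median -0.293), and in complex V 2 of 17 were higher and 4 lower (median -0.203). With the range closed Atp5l, which stood at the complex V median, moved from -0.203 to 0.127, and Cox6a1 was no longer called. Of the 7 assembly factors of complex I, 3 were higher and 2 lower.

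**Figure D2:**
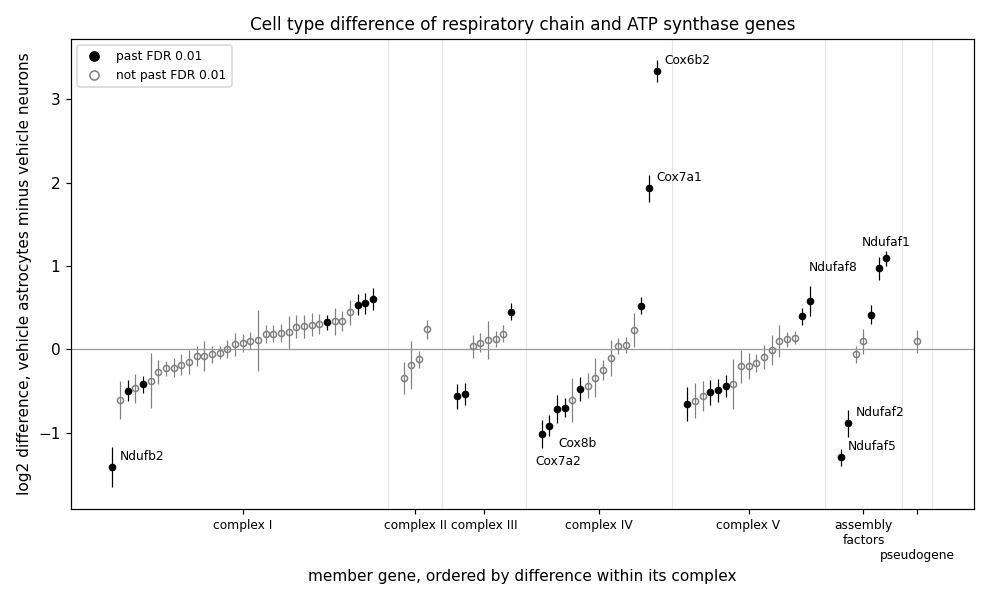
Log2 difference between vehicle astrocytes and vehicle neurons (y axis, bars show the standard error) for each of the 88 members, ordered by size within its complex (x axis). Filled points passed a false discovery rate of 0.01, 13 above and 16 below 0, and Cox6b2 and Cox7a1 of complex IV stand highest.

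The largest differences lay in the paralogous subunits of complex IV. The regions before the genes of 2 such pairs are shown because the paralogues moved in opposite directions or only one of them moved. Each window runs from 250 bases before to 50 after the annotated start of the gene, 5′ to 3′ on the strand of the gene, from RefSeq (GRCm38.p6). The windows are chr7:30626065-30626364 (minus strand) for Cox6b1, chr7:4753045-4753344 (minus strand) for Cox6b2, chr9:79759804-79760103 (minus strand) for Cox7a2 and chr7:30183921-30184220 (plus strand) for Cox7a1. Capitals mark matches on either strand to GGGCGG (Sp1), CCGGAAG (ETS family, such as GABP), TGCGCA (core of the NRF1 motif), AAGATGG (YY1) or CCAAT (NF-Y).
Cox6b1: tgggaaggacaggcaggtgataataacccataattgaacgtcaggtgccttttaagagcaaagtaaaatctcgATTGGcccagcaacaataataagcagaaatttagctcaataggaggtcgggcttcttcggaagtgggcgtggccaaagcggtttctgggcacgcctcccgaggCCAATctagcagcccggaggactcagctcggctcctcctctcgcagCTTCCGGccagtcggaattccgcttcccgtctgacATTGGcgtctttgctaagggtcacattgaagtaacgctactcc
Cox6b2: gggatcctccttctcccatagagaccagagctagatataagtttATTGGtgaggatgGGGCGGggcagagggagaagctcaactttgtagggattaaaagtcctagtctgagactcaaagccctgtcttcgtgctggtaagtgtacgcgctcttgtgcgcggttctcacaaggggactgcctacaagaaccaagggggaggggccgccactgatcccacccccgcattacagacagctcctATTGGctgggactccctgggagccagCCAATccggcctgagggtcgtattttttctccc
Cox7a2: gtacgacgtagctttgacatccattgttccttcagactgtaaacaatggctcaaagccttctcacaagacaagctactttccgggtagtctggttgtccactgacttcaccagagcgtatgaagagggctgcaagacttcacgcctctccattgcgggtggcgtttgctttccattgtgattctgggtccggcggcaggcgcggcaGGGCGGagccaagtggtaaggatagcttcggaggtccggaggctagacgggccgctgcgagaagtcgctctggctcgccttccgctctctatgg
Cox7a1: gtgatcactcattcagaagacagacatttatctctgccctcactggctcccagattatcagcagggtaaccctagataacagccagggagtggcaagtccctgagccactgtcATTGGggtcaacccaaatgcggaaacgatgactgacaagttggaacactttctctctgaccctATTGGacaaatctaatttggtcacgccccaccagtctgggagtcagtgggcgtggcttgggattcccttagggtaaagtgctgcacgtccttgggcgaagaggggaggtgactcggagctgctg

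The Cox6b2 window held 1 Sp1 and 3 NF-Y matches, the Cox6b1 window 1 ETS and 3 NF-Y matches, the Cox7a1 window 2 NF-Y matches and the Cox7a2 window 1 Sp1 match. Of the 88 members, 71 had a window in the RefSeq table of 27025 genes. The ETS motif was found in 18 of these (25.4%, against 9.93% of all genes), the NRF1 core also in 18 (25.4% against 8.79%), the YY1 motif in 11 (15.5% against 7.28%), the Sp1 motif in 34 (47.9% against 38.2%) and the CCAAT motif in 31 (43.7% against 41.1%). A gene with several windows was counted if any of them held the motif, and these shares describe the letters only. The full palindromic glucocorticoid element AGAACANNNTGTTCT was found in none of the 71 and in 3 of all genes (0.0111%).

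Cox6b2, the testis form of a subunit that faces cytochrome c, had the largest difference of all members. It read 11.27, 11.18, 11.43 and 11.04 in the vehicle astrocytes and 7.84, 7.82 and 8.02 in the vehicle neurons. The groups lay far apart, and the astrocyte level was 3.34 ± 0.13 higher on the log2 scale (SE; 10.1-fold, adjusted p = 1.08e-26). A second probe of Cox6b2 was also higher in astrocytes, by 0.98 (adjusted p = 6.37e-08). Over all treatments Cox6b2 ran from 10.81 to 11.61 (median 11.3) in the 24 astrocyte arrays and from 7.58 to 8.19 (median 7.92) in the 22 neuron arrays.

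Its widely expressed paralogue Cox6b1 read 16.21, 15.54, 15.45 and 15.21 in astrocytes and 15.35, 15.97 and 15.80 in neurons. The groups overlapped, and the difference of -0.10 did not pass the test (adjusted p = 0.777) and became 0.10 with the empty range closed.

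Cox7a1, the heart and skeletal muscle form of subunit 7a, read 10.78, 10.93, 10.61 and 10.11 in vehicle astrocytes and 8.80, 8.78 and 8.44 in vehicle neurons. All astrocyte arrays were above all neuron arrays (1.93 ± 0.16, 3.82-fold, adjusted p = 1.32e-14). Cox7a2, the form found in most tissues, lay the other way.

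Cox7a2 read 10.30, 10.20, 10.35 and 10.07 in astrocytes and 11.09, 11.13 and 11.52 in neurons. It was lower in astrocytes by 2.02-fold (-1.02 ± 0.17, adjusted p = 2.21e-06). Neither Cox7a1 nor Cox7a2 overlapped between the cell types in any treatment, since Cox7a1 ran from 10.05 to 11.13 in astrocytes and from 8.44 to 8.90 in neurons, and Cox7a2 from 9.74 to 10.38 and from 10.69 to 11.85.

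The third gene of this family, Cox7a2l, whose product joins complexes III and IV into supercomplexes, read 11.75, 11.94, 12.38 and 12.33 in astrocytes and 12.56, 12.80 and 13.08 in neurons. It was lower in astrocytes by its brightest probe (-0.71 ± 0.17, adjusted p = 0.000471), with no overlap. Its dimmer probe (mean 9.31) was higher in astrocytes by 1.14 (adjusted p = 1.22e-05), so the direction of Cox7a2l depended on the probe.

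**Figure D3:**
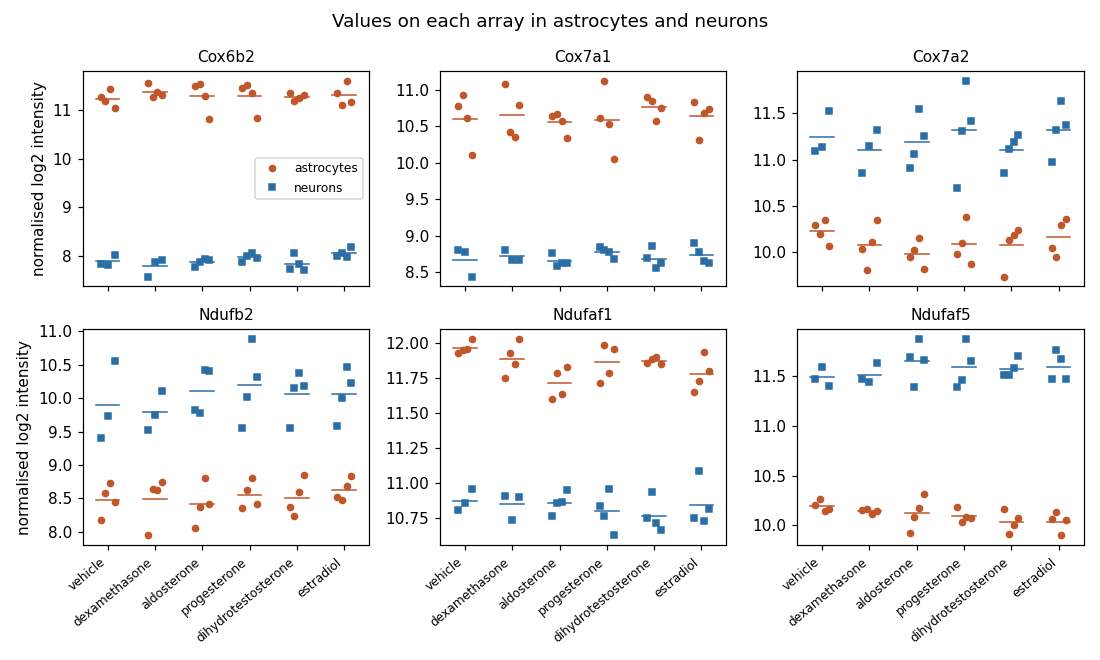
Log2 intensity (y axis) of Cox6b2, Cox7a1, Cox7a2, Ndufb2, Ndufaf1 and Ndufaf5 on the 46 arrays of the fit, by treatment (x axis) and cell type, with 1 point per array and a line at each group mean. For each of these genes the astrocyte and neuron arrays are separate in every treatment, and the treatments lie close together.

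Among the other complex IV isoforms, Cox6a2, the muscle form of subunit 6a, was lower in astrocytes (adjusted p = 1.54e-06), with 7.54, 7.42, 7.48 and 7.47 against 8.19, 8.35 and 7.99. Its ubiquitous counterpart Cox6a1 read 14.96, 14.99, 14.68 and 14.59 against 15.09, 15.12 and 15.64. The groups of Cox6a1 did not overlap (-0.48, adjusted p = 0.00509), but only the last of these arrays lay above its empty range, and with the range closed the difference was -0.31 (adjusted p = 0.0253). Cox8b, another muscle form, was near background in astrocytes (6.82, 6.92, 7.18 and 7.04) and read 7.93, 7.94 and 7.85 in neurons (adjusted p = 3.41e-08). With the astrocyte means of Cox6a2 and Cox8b under 7.5, the limit used here for near background, the sizes of these differences are bounds only.

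Cox8c, a testis form, was called higher in astrocytes (adjusted p = 2.76e-05), but both groups were near background and no size is given. Cox4i1, the main form of the largest nuclear-encoded subunit, read 15.19, 15.47, 15.45 and 15.99 against 15.10, 15.07 and 15.72. The difference of 0.23 did not pass the test (adjusted p = 0.447), nor did that of 0.27 with the empty range closed (adjusted p by limma 0.0331). Cox4i2, its form of lung and of low oxygen, was near background (difference 0.05), as was the testis form Cox7b2 (0.04). Cox7b read 8.03, 8.36, 8.30 and 8.92 against 8.95, 8.76 and 9.32 and did not pass (-0.61, adjusted p = 0.063). The list of tissue isoforms also held Cox8a, Ndufa4 and the genes of subunit c of ATP synthase, and 4 of its 16 measured members were higher in astrocytes (Cox6b2, Cox7a1, Cox8c and Atp5g2) and 5 lower, against 21.7% and 19.3% of all genes.

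In complex I the accessory membrane subunit Ndufb2 differed most. It read 8.17, 8.58, 8.73 and 8.45 in vehicle astrocytes and 9.41, 9.73 and 10.56 in vehicle neurons. The groups were separate, and the astrocyte level was lower by 2.67-fold (-1.42 ± 0.24, adjusted p = 1.92e-06), although the neuron arrays themselves spread over more than 1 log2 unit. Ndufa8 (-0.42) and Ndufv3 (-0.50 by its brightest probe) were the other 2 called lower.

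Ndufa2 (0.60), Ndufa6 (0.55) and Ndufa1 (0.54), accessory subunits, and Ndufs8 (0.32), which carries iron-sulfur clusters of the electron path, were higher in astrocytes. Ndufv1, which binds NADH, differed by -0.23 and Ndufs7, which carries the last cluster before ubiquinone, by 0.10, and neither passed. Ndufa4, first described in complex I and now counted with complex IV, read 15.18, 15.21, 15.20 and 15.21 in astrocytes and 15.20, 15.91 and 15.89 in neurons. Its difference was -0.47 (adjusted p = 0.0298) and was -0.14 with the empty range closed.

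The assembly factors of complex I, which are not part of the finished enzyme, lay on both sides. Ndufaf1, a chaperone of an early membrane intermediate, read 11.93, 11.95, 11.96 and 12.03 in vehicle astrocytes and 10.81, 10.86 and 10.96 in vehicle neurons. The spread within each group was small against the gap, a 2.13-fold higher level in astrocytes (1.09 ± 0.09, adjusted p = 1.02e-14).

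Ndufaf5, which hydroxylates an arginine of subunit Ndufs7, read 10.20, 10.26, 10.14 and 10.16 in astrocytes and 11.47, 11.59 and 11.40 in neurons. It was 2.46-fold lower in astrocytes (-1.30 ± 0.10, adjusted p = 7.48e-16), and its second probe lay the same way (-1.66). Across treatments neither gene overlapped, with Ndufaf1 at 11.6 to 12.03 in astrocytes and 10.63 to 11.09 in neurons, and Ndufaf5 at 9.9 to 10.31 and 11.39 to 11.87.

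Ndufaf8, a partner of Ndufaf5, went the opposite way from Ndufaf5. It read 10.93, 11.17, 11.01 and 10.69 in astrocytes and 10.08, 10 and 9.85 in neurons (0.97 ± 0.14, adjusted p = 4.29e-08). Ndufaf2 was lower in astrocytes, with 10.58, 10.74, 10.89 and 10.95 against 11.59, 11.58 and 11.87 (-0.89, adjusted p = 5.26e-06). Ndufaf7, a methyltransferase, was 0.42 higher, and Ndufaf4 and Ndufaf6 did not pass.

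In complex III the core protein Uqcrc1 was 0.45 higher in astrocytes, while the small subunit Uqcrb was lower (-0.54), as was the Rieske iron-sulfur protein Uqcrfs1 (near background, so its size is a bound only). In complex V the coupling factor Atp5j was 0.40 higher, and Atp5d (the delta subunit of the rotor stalk, -0.49) and Atp5c1 (the gamma subunit, -0.44) were lower. Atp5mpl, a small membrane subunit, was lower (-0.52, or -0.35 with the range closed, adjusted p = 0.00942).

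Atp5k and Atp5g2 had the highest adjusted p-values of the 29 calls. Atp5k, which takes part in dimer formation, read 7.94, 8.24, 8.09 and 7.74 against 8.60, 8.64 and 8.74 (-0.66, adjusted p = 0.00711), and Atp5g2, a gene for subunit c, read 12.15, 12.09, 12.30 and 12.31 against 11.26, 11.78 and 11.87 (0.58, adjusted p = 0.00756). Atp5g3, another gene for subunit c, overlapped between the groups (0.12), and Atp5b differed by 0.14, or by -0.03 with the range closed.

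Different probes of one member did not always give the same difference. Of the 88 members, 34 had more than 1 probe. A second probe of Atp5o, the stalk subunit called OSCP, gave -1.34 (adjusted p = 8.72e-16), where its brightest probe gave -0.09. A second probe of Atp5j gave 1.20 where the brightest gave 0.40, and a dim probe of Ndufb8 gave 1.12 where the brightest gave -0.08. The third probe of Ndufv3 gave 0.21, opposite to its others.

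Over all 6 treatments, with 24 astrocyte and 22 neuron arrays, 26 members were higher and 37 lower in astrocytes. Of all genes 31.1% were higher and 29.0% lower, so that 60.1% were called in this larger comparison, against 71.6% of the members. The median was -0.04 for the members and 0.009 for all genes. Complex I was split, with 15 higher and 10 lower of 35 (median 0.014). In complex IV 3 were higher and 10 lower of 16 (median -0.32), and in complex V 2 were higher and 11 lower of 17 (median -0.306). These counts and medians are of the values as deposited. With the empty range closed Atp5l, which stood at the complex V median, moved from -0.306 to 0.079. Cox6b1 moved from -0.304 to 0.033 and Atp5j2 from -0.257 to -0.038, while Atp5mpl, Atp5o, Cox5b and Cox6a1 stayed lower.

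Members that passed in this comparison and not between the vehicle groups included Atp5md, a small membrane subunit of ATP synthase (-0.82), and Atp5a1, its alpha subunit (-0.67). Sdhd, the membrane anchor of succinate dehydrogenase (-0.64), its iron-sulfur protein Sdhb (-0.51), and Cox7b (-0.84) were others. Ndufc2 (0.41) and Ndufb7 (0.39) of complex I were higher. A dimmer second probe of Ndufc2 (mean 7.545) was lower (-0.58, adjusted p by limma 6.84e-06), so its direction depended on the probe. With the empty range closed 60 of the 63 calls remained, and Atp5j2, Atp5l and Cox6b1 were lost. With cell type and replicate number as a random block 57 of the 63 remained, beside 54.2% of all genes. That block used 1 correlation for all genes, 0.167. In neurons the replicate number took 88.79% of the within-group sum of squares of Atp5md, 94.75% of Sdhd and 79.79% of Cox7b. In astrocytes it took 37.72%, 73.48% and 37.78%. Arrays of the same number are therefore not independent, and the p-values of such members may be too small. All treatments share the cell type's culture conditions.

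The response to steroids was compared with vehicle in each cell type. No member passed a false discovery rate of 0.01 for any of the 5 steroids in astrocytes or in neurons. Of all genes, 4.94% were called with dexamethasone in astrocytes (2.56% higher and 2.39% lower), 0.788% with aldosterone, 0.0846% with progesterone and 0% with dihydrotestosterone or estradiol. In neurons 0.192% were called with dexamethasone, 0.00445% with aldosterone and 0% with the other 3. The test for any steroid called no member either, beside 4.5% of all genes in astrocytes and 0.183% in neurons. The dexamethasone effect in astrocytes against that in neurons was called for no member and for 1.43% of all genes.

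At an unadjusted p under 0.05, limma gave 5 members with dexamethasone in astrocytes (5.68%, against 17.7% of all genes), 5 with aldosterone (11.3% of all genes), 2 with progesterone (7.95%), 3 with dihydrotestosterone (7.26%) and 3 with estradiol (6.55%). In neurons it gave 2, 3, 2, 2 and 0 members in the same order of steroids, against 3.12%, 2.15%, 2.26%, 2.14% and 2.43% of all genes. The median difference of the 88 members was 0.002, -0.013, -0.015, 0.017 and 0.006 in astrocytes. In neurons it was 0.012, 0.032, 0.069, -0.008 and 0.068, and when the number of the replicate entered as a block it was 0.012, -0.004, 0.031, -0.033 and 0.034. The test for any steroid gave 3 members in astrocytes (14.9% of all genes) and 2 in neurons (2.16%), and the dexamethasone effect between cell types 2 (9.34%). The typical standard error was 0.125 to 0.145.

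A missed threshold does not show that levels were equal, so the intervals of the differences were taken. The 95% interval lay within 1 log2 unit of 0 for 86 to 88 of the 88 members in each of the 10 comparisons, and within 0.5 for 65 to 78. Those that reached past 1 were Atp5md with dexamethasone, aldosterone and progesterone, Ndufb9 with aldosterone and dihydrotestosterone and Sdhd with dihydrotestosterone, all in astrocytes.

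**Figure D4:**
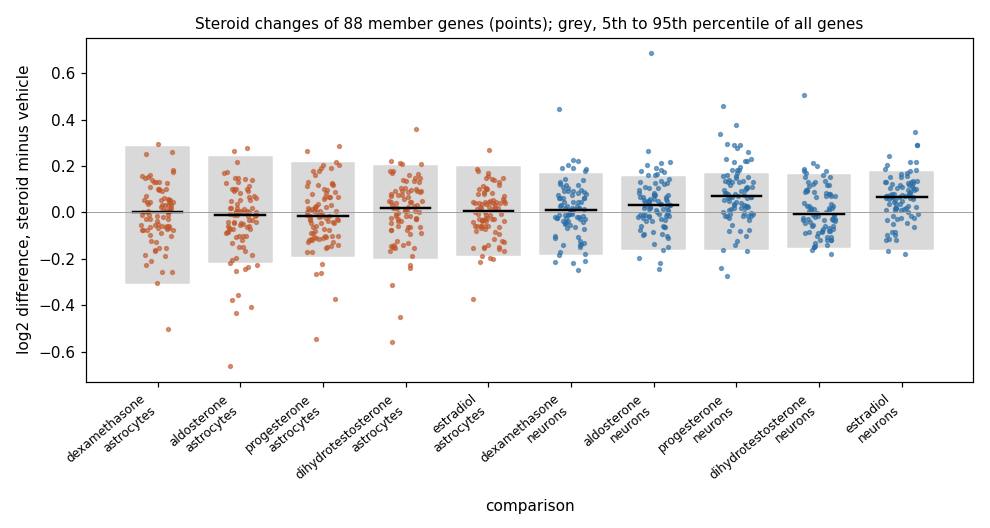
Log2 difference from vehicle (y axis) of each of the 88 members for the 5 steroids in astrocytes and in neurons (x axis). The black line is the median of the members and the grey band spans the 5th to 95th percentile of all genes. The medians lie between -0.015 and 0.069 and no member passed the test.

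The members with the smallest p-values are given by array. With dexamethasone in astrocytes this was Atp5pb, the peripheral stalk subunit b of ATP synthase, which read 12.67, 12.72, 12.94 and 13.03 with vehicle and 13.11, 13.09, 13.16 and 13.17 with the steroid. The groups did not overlap, but the difference of 0.29 ± 0.10 did not pass (adjusted p = 0.076, and 0.0167 with the replicate block). Ndufab1, the mitochondrial acyl carrier protein (near background, -0.26, adjusted p = 0.132), and Ndufc2, a membrane subunit of complex I (0.25, adjusted p = 0.137), followed.

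Ndufc2 was also among the 3 lowest p-values of the other 4 steroids in astrocytes. It read 14.30, 14.05, 14.15 and 14.31 with vehicle and 14.58, 14.44, 14.40 and 14.40 with dexamethasone. With aldosterone it read 14.54, 14.32, 14.48 and 14.53, with progesterone 14.61, 14.60, 14.59 and 14.07, with dihydrotestosterone 14.52, 14.53, 14.60 and 14.59, and with estradiol 14.57, 14.27, 14.47 and 14.57. The 5 comparisons shared the same 4 vehicle arrays, and the groups were separate for dexamethasone, aldosterone and dihydrotestosterone and overlapped for progesterone and estradiol. The differences were 0.27 for aldosterone (adjusted p = 0.246), 0.27 for progesterone (0.493), 0.36 for dihydrotestosterone (0.312) and 0.27 for estradiol (0.635). A dimmer second probe gave another sign with dexamethasone and progesterone once averaged in.

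In astrocytes the other named members were Ndufaf1 (-0.25) and Ndufa9 (0.28) with aldosterone, Ndufs8 (0.21) and Atp5l (0.29, or 0.04 with the empty range closed) with progesterone, Ndufs6 (0.22) and Sdhd (-0.56) with dihydrotestosterone, and Ndufaf1 (-0.19) and Ndufs8 (0.18) with estradiol. Their adjusted p-values ranged upward from 0.184. For the dexamethasone effect in astrocytes against neurons the smallest p-value was that of Cox8c (near background, -0.34, adjusted p = 0.455).

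In neurons the member with the smallest adjusted p was Atp5o with aldosterone. It read 15.35, 15.20 and 15.08 in vehicle arrays 1, 2 and 4 and 15.93, 15.83, 15.87 and 15.95 with aldosterone. The groups were separate (0.69 ± 0.14, adjusted p = 0.205, or 0.0305 with the replicate block), yet all 4 aldosterone arrays lay above the empty range and the vehicle arrays did not. With the range closed the difference was 0.19 ± 0.09 (adjusted p = 0.999). Ranked among all 46174 probes of its array, Atp5o stood at 148.5, 164 and 217.5 with vehicle and at 134, 145.5, 154.5 and 136.5 with aldosterone. Its other probes differed by 0.03 and 0.05.

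Atp5o read 15.29, 15.92, 15.32 and 15.81 with progesterone and 15.34, 15.88, 15.23 and 15.21 with estradiol, in both cases on either side of the range. It read 15.30, 15.34, 15.30 and 15.19 with dihydrotestosterone, and 15.88, 15.12 and 15.30 in dexamethasone arrays 1, 2 and 4. The test for any steroid in neurons gave Atp5o an adjusted p of 0.0497, of 0.00704 with the replicate block (which called 0.343% of all genes), and of 1 with the range closed, with or without the block. Atp5j2, subunit f of ATP synthase, likewise gave 0.45 with dexamethasone and 0.51 with dihydrotestosterone, and 0.12 and 0.14 with the range closed.

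The other named members in neurons were Atp5b (0.19, or 0.03 with the range closed) and Cox6a2 (-0.22) with dexamethasone, Sdha, the flavoprotein of complex II (-0.22, near background), and Atp5b (0.16, or -0.003 closed) with aldosterone, Atp5o (0.38, or 0.13 with the range closed), Sdha (-0.24) and Uqcr10 (0.46, or 0.12) with progesterone, Ndufs8 (0.19) and Cox7b2 (0.18) with dihydrotestosterone, and Atp5b (0.13, or -0.04 closed), Atp5l (0.24, or 0.08 closed) and Ndufs3 (0.22) with estradiol. None passed. The 5 steroids were set against the same 3 vehicle arrays, of which number 1 lacked the empty range and read 15.91 for Atp5b where numbers 2 and 4 read 16.39 and 16.37.

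A fit with replicate number as a fixed block, unlike the random block above, called 1 member in 1 of the 10 comparisons with vehicle. This was Atp5md with aldosterone in astrocytes, which read 8.53, 8.65, 8.58 and 9.04 with vehicle and 8.01, 7.76, 8.47 and 7.91 with aldosterone. The groups did not overlap, and the difference was -0.66 ± 0.28 without the block (adjusted p = 0.365) and -0.66 ± 0.14 with it (adjusted p = 0.00356), where 1.51% of all genes were called. The replicate number took 37.72% of the within-group sum of squares of Atp5md in astrocytes and 88.79% in neurons. The fit pooled the error over both cell types, so the error used here for astrocytes also draws on the neuron arrays. With dexamethasone Atp5md read 7.99, 7.87, 8.22 and 8.71 and overlapped the vehicle arrays (adjusted p = 0.017 with the block).

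The blocked test for any steroid in astrocytes called 7.46% of all genes and 1 member, Sdhd (adjusted p = 0.0022, against 0.84 without the block). Sdhd read 9.23, 9.10, 9.84 and 9.84 with vehicle and 8.45, 8.32, 9.57 and 9.43 with dihydrotestosterone, so that each numbered array was lower than its vehicle partner while the groups overlapped. Atp5md (0.0122) and Cox6a2 (0.0109) just missed the threshold in this test.

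Aldosterone, progesterone, dihydrotestosterone and estradiol were given at the same dose and time and were compared in 6 pairs in each cell type, with p-values adjusted over the 6 pairs for the member with the smallest p-value of a pair and, as before, over all probes. Dexamethasone was given at a lower dose and was not compared with them. All 4 are steroids, of which aldosterone and progesterone share the 3-keto-4-ene structure of ring A, dihydrotestosterone has that ring reduced, and estradiol has an aromatic ring A. Adjusted over all probes, no member passed in any pair. In astrocytes 0.57% of all genes passed between aldosterone and dihydrotestosterone, 0.561% between aldosterone and estradiol, 0.245% between aldosterone and progesterone, 0.0445% between progesterone and dihydrotestosterone, 0.0312% between progesterone and estradiol and 0% between dihydrotestosterone and estradiol. In neurons 0.00891% passed between aldosterone and dihydrotestosterone, 0.00445% between aldosterone and estradiol and between progesterone and estradiol, and 0% in the other 3 pairs. At an unadjusted p under 0.05, limma gave 0 to 3 members in each pair. No share of all genes is given beside this count, so it is not read as a result about the members. The 95% interval of the difference lay within 1 log2 unit of 0 for all 88 members in every pair, and within 0.5 for 72 to 79.

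Adjusted over the 6 pairs alone, Atp5o in neurons was higher with aldosterone than with dihydrotestosterone (0.61 ± 0.13, p adjusted over pairs by limma 0.000139, over all probes 0.201). It was also higher with aldosterone than with estradiol (0.48, 0.00176 and 0.998) and than with progesterone (0.31, 0.0365 and 0.999). These differences were 0.12, 0.11 and 0.07 with the empty range closed. Cox4i2, near background, differed by -0.28 between dihydrotestosterone and estradiol (adjusted p = 0.0127 over the pairs and 0.998 over all probes). In astrocytes Ndufa10, a matrix-side subunit of complex I, differed by 0.25 between aldosterone and progesterone and by 0.26 between aldosterone and dihydrotestosterone (both 0.0531 over the pairs). The members were picked for their p-values, so adjustment over the pairs alone does not allow for that choice.

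Members also varied within groups. The median within-group SD was 0.188 for the members and 0.145 for all genes, or 0.192 and 0.16 for those not near background, and the replicate number took a median of 50.24% of the within-group sum of squares in astrocytes and 44.9% in neurons, against 26.71% and 34.35% for all genes. For the 78 members not near background it took 53.06% and 49.46%, against 38.1% and 41.73% of all genes not near background.

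The most variable members were Ndufb10 (SD 0.544) and Ndufb9 (0.494), both membrane-arm subunits of complex I, Atp5md (0.443) and Sdhd (0.426), followed by Cox7b (0.387), Ndufb2 (0.353) and Cox6c (0.344). In neurons the replicate number took 90.45% of the sum of squares of Ndufb10, 81.35% of Ndufb9, 88.79% of Atp5md and 94.75% of Sdhd. In astrocytes it took 59.53%, 85.45%, 37.72% and 73.48% in the same order. Ndufb10 read 10.05, 11.06 and 11.4 in vehicle neurons 1, 2 and 4 and 9.98, 11.12, 11.17 and 11.19 with dihydrotestosterone in neurons 1 to 4, so that number 1 was the lowest in both.

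**Figure D5:**
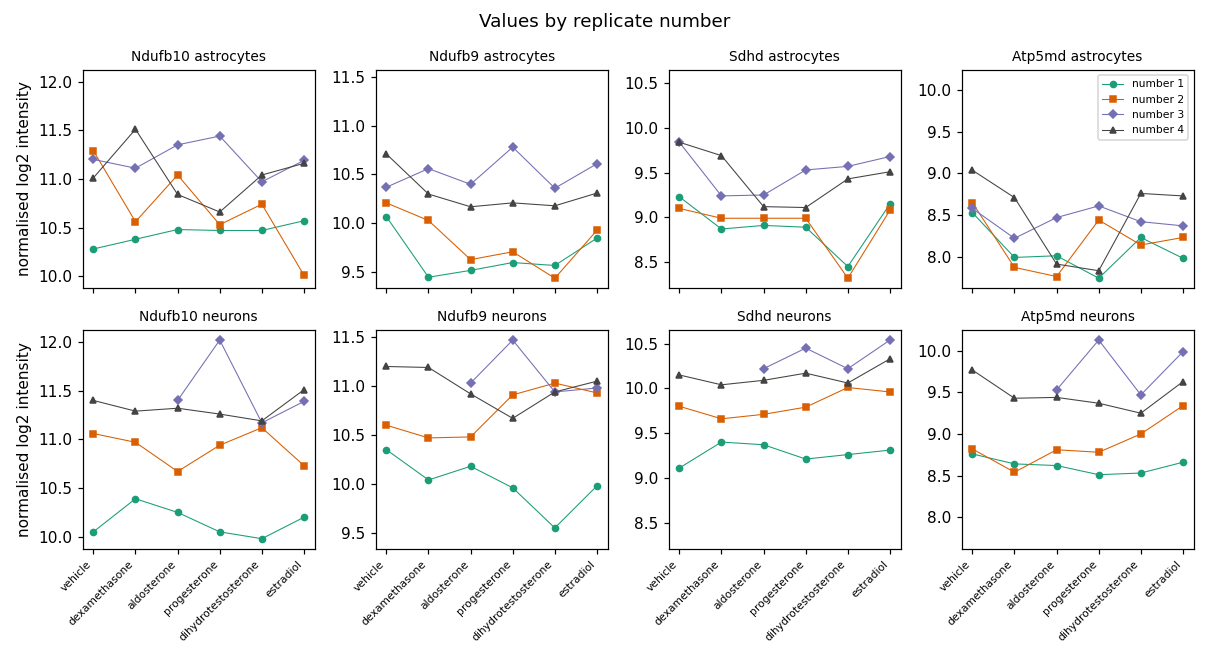
Log2 intensity (y axis) of Ndufb10, Ndufb9, Sdhd and Atp5md by treatment (x axis) in astrocytes (top) and neurons (bottom), with 1 point per array of the fit. Colours, symbols and lines mark the replicate number. In neurons the replicate number took between 81.35% and 94.75% of the within-group sum of squares of these genes, and in astrocytes between 37.72% and 85.45%.

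After group means were removed, the median correlation between pairs of the 78 members not near background was 0.08 over the 24 astrocyte arrays and 0.241 over the 22 neuron arrays. It was 0.106 and 0.279 for pairs of the same complex and 0.063 and 0.223 for other pairs. For the 10 members with the largest SD it was 0.60 in astrocytes and 0.87 in neurons. All pairs share arrays and normalisation, and these values are descriptions.

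Other mitochondrial and metabolic genes gave the setting in the vehicle groups. For comparison, 21.7% of all genes were higher and 19.3% lower in astrocytes. Of 36 measured assembly factors outside the rule 9 were higher and 7 lower in astrocytes, for example Coa6 (1.49) and the copper chaperone Cox17 (1.08) higher and Coa7 (-2.52) and Ttc19 (-1.74) lower. Of 8 electron carriers 3 were higher, all parts of the route from fatty acid oxidation to ubiquinone (Etfa 1.97, Etfb 1.38 and Etfdh 1.33), and 3 were lower (Dhodh -0.73, Cyc1 -0.45 and Cycs -0.35).

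Of 15 genes of the citric acid cycle 3 were higher (Suclg2 2.68) and 5 lower (Dlat -1.16). Of 14 glycolytic genes 6 were higher and 3 lower, with the platelet-type phosphofructokinase Pfkp 2.94 higher and the neuronal enolase Eno2 lower (-3.08). Of 18 regulators of mitochondrial biogenesis 3 were higher and 5 lower, and of 20 genes of the outer membrane and import 1 was higher and 7 lower.

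Among all these lists limma called 2 genes with a steroid. Ppargc1a, a coactivator that induces respiratory chain genes, read 8.81, 9.09, 9.04 and 9.08 with vehicle and 8.56, 8.64, 8.14 and 8.58 with dexamethasone in astrocytes. The groups were separate, a fall of 0.53 ± 0.12 (difference -0.53, adjusted p = 0.00247), while no member of the respiratory chain was called in the same arrays. The astrocytic aldolase Aldoc, which is also in the astrocyte marker list, rose with dexamethasone in neurons (0.53 ± 0.11, adjusted p = 0.00772).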

How the data were processed

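RNA of 48 cultures was hybridised to Illumina MouseWG-6 v2 arrays. The deposited values are log2 intensities given to 2 decimals, which the authors made with BeadStudio 3.0, beadarray quality control, background subtraction and quantile normalisation, though the steps behind the table are not stated one by one. A table of intensities before normalisation was deposited but not used, since only 1 of its 48 columns was closest to the array of its own label. By value, each of 8 slides held 1 cell type and number and each of 6 positions 1 treatment. By this matching slide cannot be told apart from cell type, nor position from treatment. By the deposited column labels some slides held both cell types, and the paper states that groups were spread evenly over hybridisation batches. Which layout is right was not settled.

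The means of the 12 groups were fitted with limma 3.58.1 in R 4.3.3 (34 residual and 11.4 prior degrees of freedom) and adjusted by Benjamini-Hochberg over all 46174 probes in each comparison, with a threshold of 0.01. Probes with a mean under 7.5 (61.1%) were called near background. The pipeline was tested on simulated data. Arrays with the same number deviated together (60 of 60 astrocyte and 51 of 51 neuron pairs of such arrays correlated above 0.1, r 0.115 to 0.325 and 0.13 to 0.564). The number therefore pairs arrays and served as a block in an alternative. This block was fixed, with a separate effect for each number, in the comparisons of steroids with vehicle, and random between cell types. Members and lists were chosen with earlier results of these data known. Between the vehicle groups the text names the 10 called members with the largest difference each way and all isoforms, and for each steroid the 3 members with the smallest p-values where none passed; others named were picked after their values were seen. The methods name 4 biological replicates a group. Their number limits the precision.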

Additional observations from a re-analysis of the deposited data

Results flagged for a closer look

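For the 46 members named, 460 groups of 4 arrays were searched for 1 array far from the other 3 by Dixon's test. It marked 28 (6.09%), and chance marks about 1 in 20.

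In 6 of these the array lay on the other side of the empty range from the rest. They were Cox4i1 in neuron estradiol 4 (16.02, others 15.17 to 15.28), Cox6a1 in neuron aldosterone 4 (15.84, others 15.04 to 15.11), Cox6b1 in neuron dihydrotestosterone 4 (15.2, others 15.92 to 16.04) and neuron progesterone 4 (15.24, others 16.04 to 16.08), Atp5j2 in neuron dihydrotestosterone 2 (15.32, others 15.9 to 15.93) and Uqcr10 in neuron dihydrotestosterone 1 (15.86, others 15.24 to 15.33).

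In neurons, array 1 of the dihydrotestosterone group was low for Cox7a2l (12.35, others 12.79 to 12.83), Ndufaf2 (11.31, others 11.73 to 11.8) and Cox7b (8.39, others 9.19 to 9.31), and array 1 of the estradiol group for Ndufaf2 (11.54, others 11.95 to 12.01). Array 2 of the dihydrotestosterone group was high for Ndufc2 (14.31, others 13.88 to 13.92) and Ndufs8 (13.16, others 12.8 to 12.86). Smaller gaps were seen for Ndufa2 in estradiol 4 (13.8, nearest other 13.81), Cox8c in progesterone 4 (6.84, others 6.62 to 6.64) and Atp5l in dihydrotestosterone 3 (16.02, others 15.9 to 15.91).

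In astrocytes, array 4 was low for Ndufaf8 with aldosterone (10.53, others 11.05 to 11.11) and progesterone (10.68, others 11.27 to 11.36), for Ndufc2 with progesterone (14.07, others 14.59 to 14.61), for Ndufa4 with dexamethasone (14.93, others 15.24 to 15.3) and for Atp5j2 with aldosterone (15.01, others 15.33 to 15.39), and high for Ndufab1 with progesterone (7.46, others 7.21 to 7.24). Ndufb2 was low in dexamethasone 1 (7.95, others 8.63 to 8.75) and Atp5k in dihydrotestosterone 2 (7.83, others 8.23 to 8.25). Ndufa9 was low in vehicle 3 (13.63, others 13.82 to 13.85) and high in estradiol 2 (14.24, others 13.79 to 13.86) and progesterone 2 (14.19, others 13.87 to 13.89). Atp5g2 was high in estradiol 3 (12.35, others 12.15 to 12.18) and Atp5o in aldosterone 3 (15.2, others 14.99 to 15.02).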

How the results depend on the processing

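Over the alternatives run, 554 values of counts stayed within 1.5 times and 9 moved, and of the values of single members 1214 kept direction and call, 31 lost and 4 gained the call and 20 changed sign. The cause was not tested. Between the vehicle groups the methods' t-test (equal variances, Benjamini-Hochberg) called 5 members higher and 7 lower. Leaving out 1 array gave 10 to 12 higher and 10 to 17 lower (10 without neuron vehicle replicate 4), and 25 to 27 and 36 to 38 over all treatments. For each steroid it gave 0 to 0. Shares of all genes are not given beside the counts of the t-test and the left-out arrays. These counts are therefore not read as results about the members. The replicate block called 1 member with aldosterone in astrocytes, 1 for any steroid in astrocytes and 1 for any steroid in neurons, and changed no other steroid call. With the range closed as well, the block called 1 with aldosterone and 1 for any steroid in astrocytes. A false discovery rate of 0.05 called 1 for any steroid in neurons. No share of all genes is given beside this count or beside those of the block with the range closed. They are likewise not read as results about the members. Most lost calls were of Atp5g2, Atp5k and Cox6a1.

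Uncalled differences changed sign as follows. Cox6b1 was 0.103 with the range closed, 0.106 with closing and block, 0.027 with neuron vehicle 3 and dexamethasone 3 exchanged, 0.027 without astrocyte vehicle replicate 4 and 0.028 without neuron vehicle replicate 2 (-0.307 to 0.028 with 1 array left out). Atp5g3 was -0.016 with quantile normalisation within cell type, -0.043 with the range closed, -0.038 with block too and -0.032 to 0.208 with 1 array left out (lowest without neuron vehicle replicate 1). With 1 array left out Cox4i2 ran from -0.007 to 0.087 (lowest without astrocyte vehicle replicate 3) and Cox7b2 from -0.032 to 0.123 (lowest without neuron vehicle replicate 4). Averaging probes gave Ndufc2 -0.046 with dexamethasone and -0.019 with progesterone in astrocytes, and turned the called Cox7a2l to 0.213. Atp5b in neurons was -0.003 with aldosterone (range closed), and with estradiol -0.026 (quantile), -0.036 (closed), -0.017 (closed with block) and -0.027 (without neuron vehicle replicate 1). A separate fit for each cell type gives no value for the comparison over all treatments or the dexamethasone effect between cell types.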
